A study of Mus musculus with 17 samples.

Results

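The 10 genes described here, Cdkn1a, Mdm2, Btg2, Sesn1, Sesn2, Pmaip1, Zmat3, Ccng1, Bbc3 and Trp53inp1, are well-known transcriptional targets of p53, the product of Trp53. They were taken by name and not by a threshold on their values, and all 10 were present among the 38293 gene IDs of a table of gland tissue and uncloned organoids and among the 55487 IDs of a table of organoid clones. Polyadenylated RNA had been sequenced from the mouse lacrimal gland, the gland that makes the watery layer of tears, and from organoids of it, which are epithelial cultures embedded in extract of basement membrane. There are 17 libraries in 7 groups, all of them wildtype apart from the clones labelled Pax6 KO. Gland tissue (n = 3), uncloned wildtype organoids in expansion medium (EM, n = 3) and uncloned wildtype organoids in differentiation medium (DM, n = 3) each carry the numbers 6, 7 and 8, here called lines. The other groups are wildtype (WT) clones 1 and 2 and labelled KO clones 1 and 2, each in EM (n = 2) and in DM (n = 2), so that each label rests on 2 clones. By the growth protocol, EM organoids had 7 days of EM and DM organoids had 2 days of EM and then 5 days of DM. The series text gives the clones 7 days of each medium instead, so their time in DM is uncertain. Nothing in the labels says whether lines 6, 7 and 8 are separate animals, and p-values measure only the spread between these samples.

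p53 is a transcription factor that is kept scarce by the ubiquitin ligase Mdm2 and accumulates after DNA damage and other stresses. It then binds response elements near its target genes, which include arrest genes such as Cdkn1a, death genes such as Pmaip1 and Bbc3, and Mdm2 itself, which closes a negative feedback loop. Many of these genes also respond to other factors, among them the relatives p63 and p73 and the stress factor Atf4, so a change in their RNA does not by itself report p53 activity.

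Libraries held 12801473 to 19207469 counts in the gland and uncloned table, and the clone libraries 18282059 to 22500534. Levels are CPM, counts relative to the library size after edgeR's trimmed-mean scaling, and log2 fold changes (± SE) and Benjamini-Hochberg adjusted p come from edgeR's quasi-likelihood test, with a call at an adjusted p under 0.05. Each table was fitted alone, so levels are not compared across them. The 10 most abundant genes took 65.5% to 67.6% of all counts in gland libraries and 5.96% to 6.72% in uncloned organoids. Scaling by total counts in place of trimmed means moved the median log2 fold change of all genes from 0.01 to 2.06 (EM against gland) and from 0.02 to 1.99 (DM against gland). Pax6 stood at 296, 313 and 296 CPM in the gland (lines 6, 7 and 8), at 150 to 197 CPM in uncloned EM and at 168 to 186 CPM in uncloned DM. In the clones Pax6 stood at 245 and 276 CPM in WT EM, 219 and 280 in WT DM, 172 and 272 in labelled KO EM, and 135 and 309 in labelled KO DM. Which bases of Pax6 were edited is not given in the sources used here, so a count over all of its exons cannot check that label. The summed level of 5 acinar markers (Aqp5, Bhlha15, Lpo, Car6, Dmbt1) was 11610 to 12980 CPM in the gland, 3.33 to 4.10 CPM in uncloned EM and 21.9 to 26.6 CPM in uncloned DM, so the defining markers of the secretory cells were nearly absent from the organoids.

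Sequence near the start of a member is shown first, because p53 response elements are what links these genes as a family. RefSeq promoter windows (GRCm38.p6, 250 bases before to 50 bases after a start) were found for 7 of the 10 members, 11 windows in all. They were searched on both strands for the p53 half-site consensus of 10 bases and for 2 such half-sites side by side, an element of 20 bases, with up to 3 mismatches and the core C and G of each half-site kept. The 4 elements found are printed 5′ to 3′ on the strand of the gene, with the element in capitals.
Cdkn1a: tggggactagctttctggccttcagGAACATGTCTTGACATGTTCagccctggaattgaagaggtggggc
Ccng1: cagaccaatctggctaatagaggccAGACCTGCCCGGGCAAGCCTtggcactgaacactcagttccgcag
Bbc3: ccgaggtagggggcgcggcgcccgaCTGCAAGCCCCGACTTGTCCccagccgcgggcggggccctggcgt
Sesn1: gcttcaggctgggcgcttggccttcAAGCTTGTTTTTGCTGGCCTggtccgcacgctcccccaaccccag

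The Cdkn1a stretch is chr17:29090903-29090972 on the plus strand, and its element, with 1 mismatch, lies 51 to 32 bases before a start. Only 1 of the 2 windows of Cdkn1a held an element. The Ccng1 stretch is chr11:40755437-40755506 on the minus strand, and its element, also with 1 mismatch, lies 195 to 176 bases before the start. The elements of Bbc3 (chr7:16309461-16309530, plus strand) and Sesn1 (chr10:41887241-41887310, plus strand) each have 3 mismatches and lie within the annotated span of the gene, ahead of an internal start and outside annotated exons. They were found in 1 of 3 windows of Bbc3 and 1 of 2 windows of Sesn1. Among all 32851 promoter windows of this length, an element with up to 1 mismatch was present in 0.067% and one with up to 3 mismatches in 1.38%. An exact half-site was present in 8.36% of all windows and in those of 4 members, Cdkn1a, Ccng1, Sesn1 and Mdm2, with the half-site of Mdm2 at chr10:117710935-117710944. No binding was measured, a match of letters is not a site in use, and no match says only that the letters are not in that window.

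In the gland, the most abundant members per kilobase of exon were Ccng1, an atypical cyclin, at 37.6 ± 2.8 CPM per kb (SD, n = 3) and Btg2, an antiproliferative cofactor, at 19.5 ± 5.1. Mdm2, Sesn1, Trp53inp1, Sesn2 and Bbc3 followed at 7.21 to 2.39 CPM per kb, and neighbours in that order overlapped in their SD. Zmat3 (1.16 ± 0.14), Cdkn1a (0.853 ± 0.086) and Pmaip1 (0.105 ± 0.143 CPM per kb) were lowest. In uncloned EM the order began with Ccng1 (51.8 ± 3.1), Cdkn1a (29.0 ± 3.0) and Btg2 (20.4 ± 1.8). In uncloned DM it began with Cdkn1a (48.5 ± 6.4) and Ccng1 (41.8 ± 4.2), whose SDs overlapped, then Pmaip1 (26.8 ± 7.5) and Btg2 (23.03 ± 4.58), which overlapped too. Cdkn1a thus went from place 9 of 10 in the gland to the first place in uncloned DM, and Bbc3 was at place 10 in both uncloned organoid groups.

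The first comparison asks how the members differed between expanding organoids and the gland. Of the 10 members, 7 rose in uncloned EM and 0 fell, beside 74.8% of all genes tested that were called in either direction and 37.4% that were called higher. The members' median log2 fold change was 1.13, and that of all genes was 0.01. With total-count scaling all 10 members were called higher (median 3.19), beside 83.8% of all genes called higher and 9.49% lower. In bulk RNA, fewer cells of a type and less RNA per cell cannot be told apart. The gland libraries also held cells that the organoids lacked: summed fibroblast markers ran from 439.9 to 527.5 CPM in the gland and to at most 0.29 CPM in uncloned EM, and all 5 fibroblast markers were detected in the gland. The part of these cells in the members' differences was not tested.

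Cdkn1a encodes the cyclin-dependent kinase inhibitor p21, the main arrest factor downstream of p53. It stood at 3.02, 2.73 and 3.34 CPM in the gland (17, 15 and 26 counts in lines 6, 7 and 8), at 109.9, 90.9 and 108.5 CPM in uncloned EM and at 186, 185 and 146 CPM in uncloned DM. All organoid libraries lay far above all gland libraries, and all DM libraries above all EM libraries. Such separation with the first group higher held for 40.1% of all genes in EM against gland, 39.1% in DM against gland and 24.2% in DM against EM, where 23.3% were lower without overlap. The rise from gland to EM was 33.6-fold (5.07 ± 0.16, adjusted p = 4.39e-10), and that from gland to DM was 56.2-fold (5.81 ± 0.16, adjusted p = 1.61e-10). Cdkn1a (Ensembl ENSMUSG00000023067) spans chr17:29090976-29100727, where an unclassified transcript is annotated on the other strand, and the strand setting of the counting is not given in the sources used here.

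Pmaip1 encodes Noxa, a BH3-only protein that binds Mcl1 and promotes apoptosis. It had 0, 4 and 1 counts in gland lines 6, 7 and 8, which are 0, 0.729 and 0.129 CPM, and 35.8, 26.5 and 28.1 CPM in uncloned EM and 82.9, 86.8 and 49.6 CPM in uncloned DM. The gland was thus close to the limit of detection, and no organoid library came near it. The log2 fold changes against the gland, 6.79 ± 0.50 for EM (adjusted p = 2.66e-07) and 8.07 ± 0.46 for DM (adjusted p = 3.21e-08), rest on those few gland counts and their size is uncertain. Bbc3, which encodes the other BH3-only member PUMA, behaved differently: it stood at 7.10, 4.38 and 3.73 CPM in the gland, 5.52, 7.35 and 7.62 in EM and 3.95, 6.23 and 5.62 in DM. The groups overlapped, and Bbc3 was called in neither medium, at 0.45 ± 0.27 for EM (adjusted p = 0.157) and 0.08 ± 0.28 for DM (adjusted p = 0.803). Without gland line 6 it was called higher in EM (0.77, adjusted p = 0.030).

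Mdm2, the ligase of the feedback loop, stood at 28.8, 34.3 and 46.9 CPM in the gland, 56.5, 54.5 and 59.5 in EM and 88.9, 89.0 and 66.8 in DM. Each group lay wholly above the one before it, as held for 40.1% of all genes in EM over gland and 24.2% in DM over EM. The log2 fold changes of Mdm2 over the gland were 0.62 ± 0.17 (EM, adjusted p = 0.00524) and 1.14 ± 0.17 (DM, adjusted p = 6.73e-05). Its rise was thus much smaller than that of Cdkn1a, and the ratio of Cdkn1a to Mdm2 CPM within a library went from 0.071 to 0.105 in the gland to 1.67 to 1.95 in EM and 2.07 to 2.19 in DM. Ccng1, another feedback member that binds a phosphatase acting on Mdm2, stood at 139, 137 and 121 CPM in the gland, 192, 183 and 170 in EM and 162, 146 and 133 in DM. It rose in EM (0.46 ± 0.10, adjusted p = 0.00107). Its difference in DM was not called (0.15 ± 0.10, adjusted p = 0.170), unless DM line 8 was left out (0.23, adjusted p = 0.044) or low counts were not filtered (0.26, adjusted p = 0.0377).

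**Figure D1:**
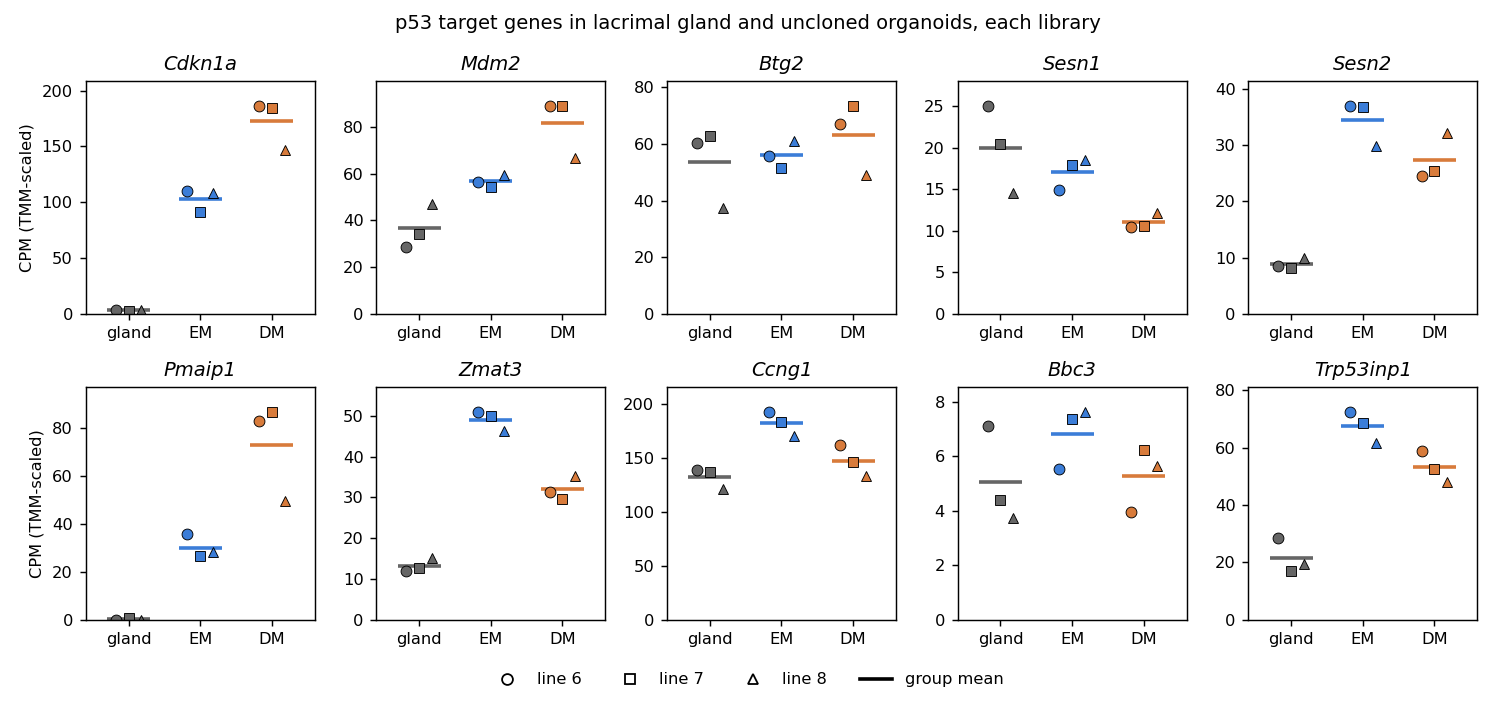
Level of each of the 10 genes (vertical axis, CPM after trimmed-mean scaling, starting at 0) in the gland, uncloned EM and uncloned DM; each symbol is a library, its shape the line, and the bar the group mean. Cdkn1a, Pmaip1, Mdm2, Sesn2, Zmat3 and Trp53inp1 libraries of the organoids lie above all gland libraries, while Btg2 and Bbc3 libraries of the 3 groups overlap. Of all genes 40.1% lie above the gland in this way in EM and 39.1% in DM.

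Sesn2 encodes a sestrin, one of a family of stress-induced proteins that restrain mTORC1 and oxidative damage. It stood at 8.52, 8.20 and 9.90 CPM in the gland, 37.0, 36.8 and 29.8 in EM and 24.4, 25.5 and 32.2 in DM, and rose in both (1.95 ± 0.16, adjusted p = 5.12e-07, and 1.62 ± 0.16, adjusted p = 2.38e-06). Its relative Sesn1 did not rise under this scaling: it stood at 25.04, 20.4 and 14.5 CPM in the gland, 14.9, 17.9 and 18.5 in EM and 10.4, 10.5 and 12.1 in DM. Its difference was not called for EM (-0.21 ± 0.18, adjusted p = 0.298), and it fell in DM (-0.85 ± 0.18, adjusted p = 0.00136). With total-count scaling the sign of Sesn1 turned, to 1.85 in EM and 1.13 in DM, both called higher, and without gland line 8 it was called lower in EM (-0.40, adjusted p = 0.035). Both sestrin genes overlap the span of another annotated transcript on the same strand (9930024M15Rik for Sesn1, Gm12981 for Sesn2), so their counts are uncertain where exons overlap.

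Zmat3 encodes a zinc-finger RNA-binding protein that tunes splicing and mRNA stability. It stood at 12.1, 12.6 and 15.04 CPM in the gland, 50.9, 49.8 and 46.2 in EM and 31.2, 29.5 and 35.1 in DM. Its rise over the gland was 1.88 ± 0.12 for EM (adjusted p = 5.81e-08) and 1.26 ± 0.12 for DM (adjusted p = 1.55e-06). Trp53inp1, a nuclear-body protein that acts with p53 and in autophagy, stood at 28.6, 17.0 and 19.4 CPM in the gland, 72.4, 68.6 and 61.5 in EM and 58.9, 52.6 and 48.1 in DM, and rose in both (1.65 ± 0.16, adjusted p = 3.17e-06, and 1.30 ± 0.16, adjusted p = 2.12e-05). Both genes were highest in EM, lower in DM and lowest in the gland, with no overlap between groups. Such separation held for 40.1% of all genes as higher in EM than gland and 39.1% as higher in DM than gland. It held for 23.3% as lower in DM than EM, and for Trp53inp1 edgeR did not call that last difference (adjusted p = 0.0989). Btg2 stood at 60.2, 62.9 and 37.3 CPM in the gland, 55.8, 51.3 and 60.9 in EM and 66.9, 73.4 and 49.2 in DM. Its groups overlapped and neither difference was called, at 0.08 ± 0.19 for EM (adjusted p = 0.729) and 0.25 ± 0.19 for DM (adjusted p = 0.257). Without DM line 8 the DM difference was called (0.42, adjusted p = 0.040).

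In DM against the gland, 6 members rose (Cdkn1a, Pmaip1, Mdm2, Sesn2, Trp53inp1, Zmat3) and 1, Sesn1, fell, beside 75.5% of all genes called in either direction, 38.1% higher and 37.4% lower. The members' median was 1.20 and that of all genes 0.02. The DM and EM comparisons share the gland libraries and are not independent. With total-count scaling all 10 members were again called higher (median 3.17), beside 84% of all genes called higher and 9.26% lower.

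**Figure D2:**
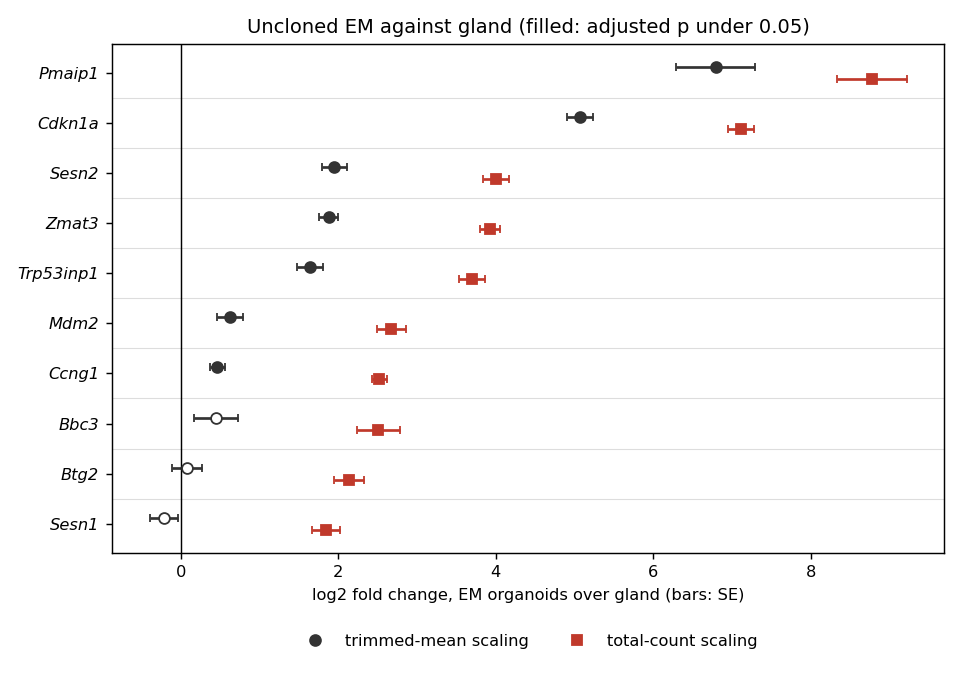
Log2 fold change of each of the 10 genes in uncloned EM over gland (horizontal axis, bars are SE) with trimmed-mean scaling (circles) and total-count scaling (squares), filled where the adjusted p is under 0.05. Total-count scaling moves all 10 genes to the right by about as much as the median of all genes, which it moves to 2.06, and Sesn1 changes sign.

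The second comparison asks what 5 days in DM changed within the uncloned organoids. Of the 10 members, 3 rose (Cdkn1a, Mdm2, Pmaip1) and 3 fell (Zmat3, Sesn1, Ccng1), beside 30.3% of all genes called, 17.2% higher and 13.2% lower. The members' median was -0.32 and that of all genes 0.00. Pmaip1 rose 2.42-fold (1.28 ± 0.22, adjusted p = 0.00137), Cdkn1a 1.67-fold (0.74 ± 0.11, adjusted p = 0.000539) and Mdm2 1.44-fold (0.52 ± 0.15, adjusted p = 0.0263). Cdkn1a was higher in DM in each of lines 6, 7 and 8, by 0.76, 1.02 and 0.43 on the log2 scale.

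Zmat3 was 1.53-fold lower in DM (-0.62 ± 0.10, adjusted p = 0.000965), Sesn1 1.55-fold lower (-0.63 ± 0.17, adjusted p = 0.0170) and Ccng1 1.24-fold lower (-0.31 ± 0.09, adjusted p = 0.0294). The other 4 members were not called: Trp53inp1 at -0.34 ± 0.15, Sesn2 at -0.33 ± 0.13, Bbc3 at -0.37 ± 0.24 and Btg2 at 0.17 ± 0.18, with adjusted p from 0.0730 to 0.520. Members of the list thus moved in opposite directions in the same libraries. With total-count scaling 2 members were called higher and 5 lower, beside 14.2% and 18.9% of all genes: Mdm2 lost its call (0.43, adjusted p = 0.0627), and Trp53inp1 (-0.43, adjusted p = 0.0376) and Sesn2 (-0.42, adjusted p = 0.0326) gained one. Trp53inp1 was also called with line as a block (-0.35, adjusted p = 0.0403).

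Calls on the smaller differences depended on single libraries. Calls over all genes also fell without EM line 6, 7 or 8 or DM line 6 or 7, and rose without DM line 8. Mdm2 lost its call without EM line 6, 7 or 8 or DM line 6 or 7 (0.45 to 0.55, adjusted p 0.0584 to 0.0903). Ccng1 lost it without EM line 6 or 7 or DM line 7 or 8 (-0.31 to -0.24, adjusted p 0.0562 to 0.104), and Sesn1 without EM line 7 or 8 or DM line 6 or 7 (-0.60 to -0.57, adjusted p 0.0511 to 0.0659). Sesn2 was called lower without EM line 8 (-0.43, adjusted p = 0.0483) or DM line 8 (-0.47, adjusted p = 0.00668). Line 8 in DM had the lowest Cdkn1a, Mdm2, Pmaip1, Btg2, Ccng1 and Trp53inp1 of the 3 DM libraries. It had the highest Zmat3, Sesn1 and Sesn2, and its Bbc3 lay between those of lines 6 and 7. With 3 libraries, a given library is often the lowest or the highest. Line 8 in DM also had the highest Mki67, a proliferation marker, at 351 CPM beside 131 and 181 in lines 6 and 7. The part of proliferation in the levels of that library was not tested.

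The same medium comparison in the clones used other libraries. Cdkn1a stood at 206 and 227 CPM in WT EM (clones 1 and 2), 334 and 339 in WT DM, 179 and 154 in labelled KO EM and 268 and 287 in labelled KO DM. Mdm2 stood at 80.2 and 84.0 CPM in WT EM, 132 and 118 in WT DM, 70.2 and 64.2 in labelled KO EM and 115 and 109 in labelled KO DM. Pmaip1 stood at 92.6 and 91.5 CPM in WT EM, 317 and 184 in WT DM, 37.6 and 32.4 in labelled KO EM and 81.5 and 81.5 in labelled KO DM. For each of these genes both DM libraries of a label lay above both of its EM libraries. With 2 libraries a group this is common: 29.3% of all genes in WT clones and 28.6% in labelled KO clones were higher in DM without overlap.

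In WT clones 3 members rose in DM (Pmaip1, Cdkn1a, Mdm2) and 1, Sesn1, fell, beside 15.7% of all genes called, 9.61% higher and 6.13% lower. With total-count scaling 3 rose and 3 fell, beside 8.47% and 8.01% of all genes, as Sesn2 (-0.46, adjusted p = 0.0421) and Ccng1 (-0.50, adjusted p = 0.0499) were called lower too. Pmaip1 rose by 1.45 ± 0.23 (adjusted p = 0.00983), Cdkn1a by 0.64 ± 0.11 (adjusted p = 0.0129) and Mdm2 by 0.61 ± 0.10 (adjusted p = 0.0101) on the log2 scale. Sesn1 went from 50.9 and 49.1 CPM in WT EM to 15.6 and 17.0 in WT DM, 3.07-fold lower (-1.62 ± 0.13, adjusted p = 0.00148). The members' median was -0.38 and that of all genes 0.00. With the clone as a block 7 members were called, 3 higher and 4 lower, beside 25.6% of all genes, the additions being Trp53inp1 (-0.78, adjusted p = 0.0129), Ccng1 (-0.43, adjusted p = 0.0239) and Zmat3 (-0.46, adjusted p = 0.0321). Without WT EM clone 1 only Sesn1 kept its call, with Cdkn1a at 0.57, Mdm2 at 0.58 and Pmaip1 at 1.46. Without WT EM clone 2 Pmaip1 was not called (1.44). Each of these fits leaves 1 WT library in EM, and calls over all genes fell as well. With only the WT libraries Mdm2 (0.62, adjusted p = 0.0504) and Pmaip1 (1.45, adjusted p = 0.0547) were not called.

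In labelled KO clones the same number rose, 3 (Pmaip1, Mdm2, Cdkn1a), and 1 fell, Sesn1, beside 8.35% of all genes called, 4.94% higher and 3.41% lower. With total-count scaling 3 rose and 2 fell, beside 4.43% and 3.81% of all genes, the addition being Sesn2 (-0.52, adjusted p = 0.0439). The log2 changes were 1.22 ± 0.24 for Pmaip1 (adjusted p = 0.0276), 0.74 ± 0.10 for Mdm2 (adjusted p = 0.0107), 0.74 ± 0.11 for Cdkn1a (adjusted p = 0.0149) and -0.57 ± 0.13 for Sesn1 (adjusted p = 0.0393). Sesn1 went from 27.9 and 31.7 CPM in labelled KO EM to 18.9 and 21.1 in labelled KO DM. The members' median was 0.07. These calls were lost without labelled KO EM clone 1, EM clone 2 or DM clone 1, and all but that on Mdm2 without DM clone 2. Each such fit leaves 1 library in a group, and calls over all genes fell as well. Without the libraries that ended each call, Mdm2 lay between 0.67 and 0.80 and Sesn1 between -0.66 and -0.48. Pmaip1 then lay between 1.11 and 1.33 and Cdkn1a between 0.63 and 0.85. With only the labelled KO libraries Sesn1 was not called (-0.57, adjusted p = 0.0524). With the clone as a block Sesn2 was called too (-0.50, adjusted p = 0.0399).

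The members that were not called in either set of clones are given by value. Sesn2 stood at 75.6 and 71.6 CPM in WT EM, 50.7 and 61.5 in WT DM, 105 and 104 in labelled KO EM and 67.3 and 81.4 in labelled KO DM. Trp53inp1 stood at 184 and 275 CPM in WT EM, 121 and 141 in WT DM, 237 and 157 in labelled KO EM and 153 and 152 in labelled KO DM. Both genes, and Ccng1 too, were lower in DM than in EM without overlap within each label, as were 29.3% of all genes in WT and 29.5% in labelled KO clones. The log2 differences were -0.39 ± 0.13 and -0.49 ± 0.13 for Sesn2 and -0.81 ± 0.24 and -0.37 ± 0.24 for Trp53inp1 (WT and labelled KO). Btg2 differed by 0.07 ± 0.11 and 0.32 ± 0.11 between media, Zmat3 by -0.46 ± 0.15 and -0.16 ± 0.15, Ccng1 by -0.43 ± 0.13 and -0.11 ± 0.13, and Bbc3 by -0.36 ± 0.25 and 0.24 ± 0.25. Adjusted p for these members ran from 0.0663 to 0.722.

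**Figure D3:**
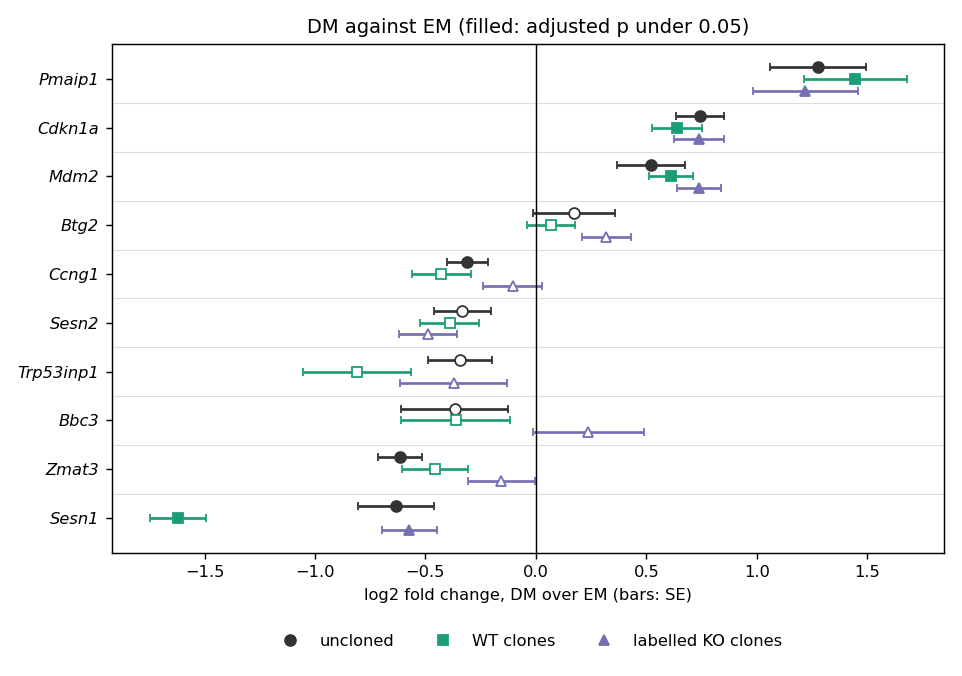
Log2 fold change of DM over EM (horizontal axis, bars are SE) for each of the 10 genes in the uncloned lines, the WT clones and the labelled KO clones, filled where the adjusted p is under 0.05. Pmaip1, Cdkn1a and Mdm2 lie to the right of 0 in all 3 sets and Sesn1 to the left, farthest in WT clones at -1.62.

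Cell division genes were counted beside the members. Of 21 such genes, 4 fell (Cenpf, Cdc20, Mcm2, Mki67) and 1, Ccne1, rose in DM in WT clones (median -1.22), beside 6.13% of all genes lower and 9.61% higher. In labelled KO clones 13 fell and 0 rose (median -2.10), beside 3.41% lower and 4.94% higher. In uncloned organoids 1, E2f1, fell and 0 rose (median -0.57), beside 13.2% lower and 17.2% higher. Without overlap, 17 were lower in DM and 1 higher in WT clones, and 20 lower and 1 higher in labelled KO clones. Of all genes, 29.3% and 29.5% were lower without overlap. The interaction of label and medium was called for 0 of the 21. Mki67 went from 84.1 and 53.4 CPM to 29.2 and 8.995 CPM in WT clones and from 97.8 and 130 CPM to 18.4 and 20.03 CPM in labelled KO clones. Their part in the members' changes was not tested.

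The third comparison asks how the label changed the members within a medium. In EM 0 members rose and 5 fell in labelled KO against WT clones (Pmaip1, Btg2, Zmat3, Sesn1, Ccng1), beside 9.8% of all genes called, 5.38% higher and 4.41% lower. The members' median was -0.69 and that of all genes 0.01. Btg2 had the smallest adjusted p of these 5: it stood at 95.1 and 109 CPM in WT EM and at 44.8 and 40.0 CPM in labelled KO EM, 2.40-fold lower (-1.27 ± 0.11, adjusted p = 0.00464). Pmaip1 was 2.63-fold lower (-1.40 ± 0.24, adjusted p = 0.0170) and Sesn1 1.68-fold lower (-0.75 ± 0.12, adjusted p = 0.0164). Zmat3 stood at 116 and 124 CPM in WT EM and at 75.0 and 62.7 CPM in labelled KO EM (-0.80 ± 0.15, adjusted p = 0.0229). Ccng1 stood at 382 and 463 CPM in WT EM and at 267 and 248 CPM in labelled KO EM (-0.72 ± 0.14, adjusted p = 0.0235).

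Cdkn1a and Mdm2 were not called in EM, at -0.38 ± 0.11 (adjusted p = 0.0814) and -0.29 ± 0.10 (adjusted p = 0.117). Both labelled KO libraries lay below both WT libraries for each, as they did for 30.4% of all genes. DESeq2 called Cdkn1a there (-0.38, adjusted p = 0.0452). Sesn2 pointed the other way at 0.50 ± 0.13 (adjusted p = 0.0580), and was called higher with total-count scaling (adjusted p = 0.0431, 1 member higher and 5 lower, beside 5.36% and 4.29% of all genes), DESeq2 (adjusted p = 0.0302), no filter on low counts (adjusted p = 0.00809) and the EM libraries alone (adjusted p = 0.0292). Bbc3, at 12.6 and 20.5 CPM in WT EM and 10.3 and 10.4 in labelled KO EM, and Trp53inp1 were not called (-0.67 ± 0.25 and -0.22 ± 0.24). Of the 5 calls, the one on Btg2 held whichever EM library was left out. Pmaip1, Sesn1 and Zmat3 lost theirs without any 1 of the 4 EM libraries (WT clone 1 or 2, labelled KO clone 1 or 2). Their log2 changes were then -1.50 to -1.30, -0.85 to -0.65 and -0.93 to -0.68. Ccng1 lost its call without WT clone 2, labelled KO clone 1 or labelled KO clone 2 (-0.76 to -0.57). Each of these fits leaves 1 library in a group, and calls over all genes fell as well.

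In DM 0 members rose and 2 fell in labelled KO clones (Pmaip1, Btg2), beside 5.47% of all genes called, 2.39% higher and 3.08% lower, and the members' median was -0.22. Btg2 stood at 111 and 103 CPM in WT DM and at 52.2 and 53.6 CPM in labelled KO DM (-1.01 ± 0.11, adjusted p = 0.0132), and Pmaip1 was 3.07-fold lower (-1.62 ± 0.23, adjusted p = 0.0223). Both genes were thus lower in every labelled KO library than in every WT library of the same medium, and so were Cdkn1a, Mdm2, Zmat3 and Ccng1. Of all genes 26.3% showed this separation in DM and 30.4% in EM, and the share in both media at once was not counted. Both calls were lost without labelled KO DM clone 1 (Btg2 -0.996, Pmaip1 -1.62) and without labelled KO DM clone 2 (Btg2 -1.03, Pmaip1 -1.62). Each of these fits leaves 1 labelled KO library in DM, and calls over all genes fell as well. With only the DM libraries Pmaip1 was not called (-1.61, adjusted p = 0.0634). The other 8 members lay between -0.50 ± 0.15 (Zmat3) and 0.41 ± 0.13 (Sesn2), with adjusted p from 0.102 to 0.894. With 2 clones a label, a difference between labels cannot be told apart from a difference between these clones.

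**Figure D4:**
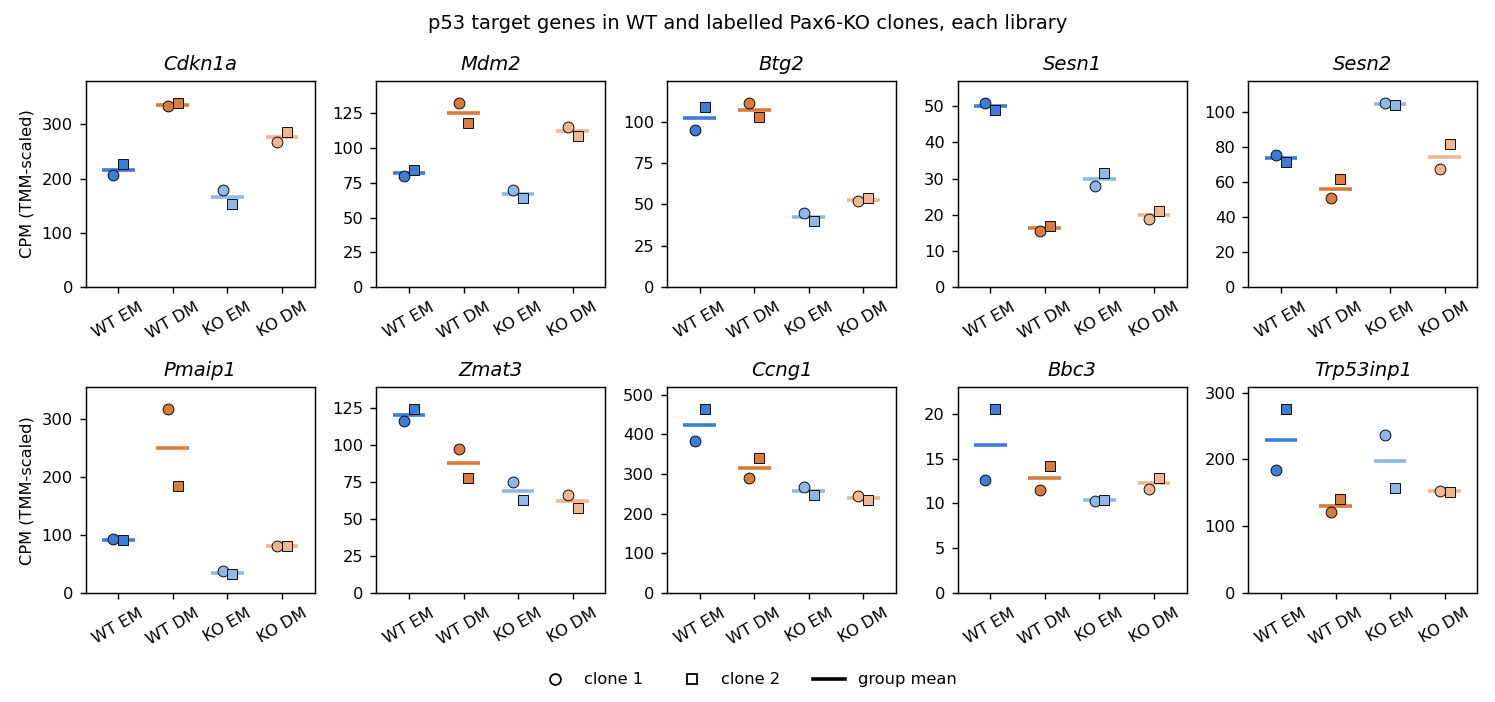
Level of each of the 10 genes (vertical axis, CPM after trimmed-mean scaling, starting at 0) in WT and labelled KO clones in EM and DM; each symbol is a library, its shape the clone number, and the bar the mean of 2. Btg2, Pmaip1, Cdkn1a, Mdm2, Zmat3 and Ccng1 libraries of labelled KO clones lie below the WT libraries of the same medium, and Sesn1 is highest in WT EM. Of all genes 30.4% lie below in this way in EM and 26.3% in DM.

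**Figure D5:**
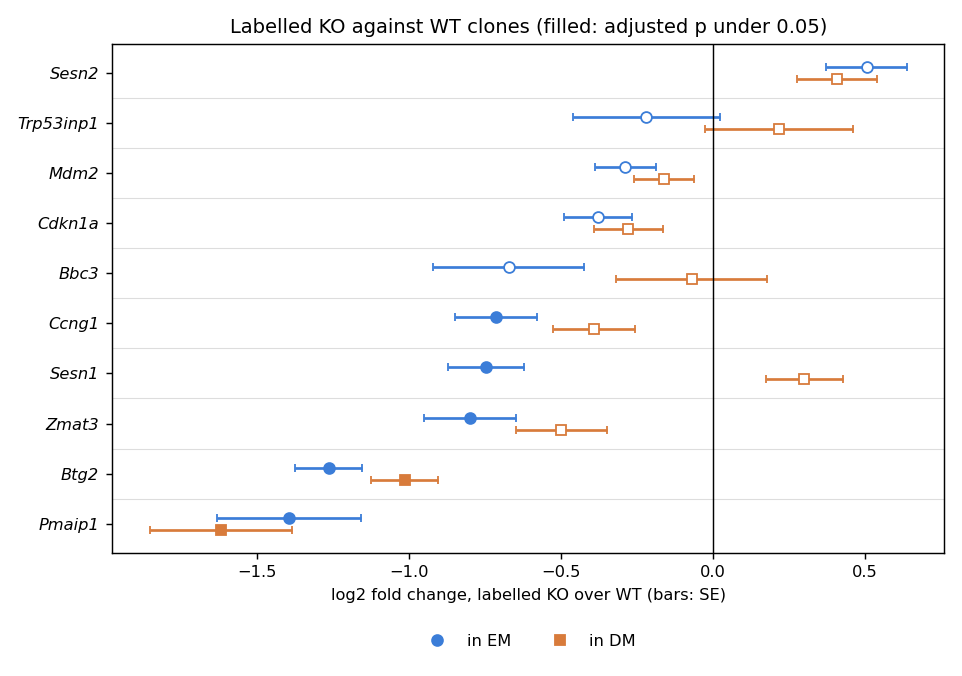
Log2 fold change of labelled KO over WT clones (horizontal axis, bars are SE) for each of the 10 genes in EM (circles) and DM (squares), filled where the adjusted p is under 0.05. The 5 filled circles and 2 filled squares all lie to the left of 0.

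Whether the medium acted differently by label was tested as an interaction. No member was called (0 of 10), nor was any other of the 14282 genes (0%) with edgeR, where 1126 genes had an unadjusted p under 0.05, while DESeq2 called 28 genes higher and 151 lower. edgeR called 154 higher and 503 lower without a filter on low counts, 6 higher and 64 lower with the clone as a block, and 8 higher and 6 lower without WT DM clone 2. Sesn1 had the largest interaction of the members, 1.05 ± 0.18 on the log2 scale (adjusted p = 0.307): the labels differed by -0.75 in EM and by 0.30 in DM. It was called by DESeq2 (1.05, adjusted p = 0.00907) and without a filter on low counts (1.06, adjusted p = 0.00525), and not with the clone as a block (1.05, adjusted p = 0.0534). For Cdkn1a, Mdm2 and Pmaip1 the interaction was 0.10 ± 0.16, 0.13 ± 0.14 and -0.22 ± 0.33, with adjusted p from 0.911 to 0.946, which does not show that the labels respond alike.

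Of 36 other genes known as p53 targets, 26 rose and 6 fell in uncloned EM against the gland (median 1.08), and 24 rose and 6 fell in uncloned DM (median 1.19). Over all genes 37.4% rose and 37.4% fell in EM, and 38.1% and 37.4% in DM. With total-count scaling 33 of the 36 were called higher and 2 lower in EM and 34 and 2 in DM. That scaling called 83.8% of all genes higher and 9.49% lower in EM, and 84% and 9.26% in DM. Phlda3, which restrains Akt, stood at 8.17, 3.83 and 9.64 CPM in the gland and at 97.9, 108 and 102 CPM in EM (3.79 ± 0.20, adjusted p = 2e-08). Plk2, a polo-like kinase, rose by 3.12 ± 0.28 (adjusted p = 1.35e-06), Bax, the pore-forming death effector, by 1.48 ± 0.12 (adjusted p = 5.41e-07) and Gdf15, a secreted stress cytokine, by 3.67 ± 0.34 (adjusted p = 1.91e-06). Between the media in uncloned organoids 7 rose and 8 fell (median -0.03), beside 17.2% of all genes higher and 13.2% lower. The death receptor Fas (1.76 ± 0.19, adjusted p = 8.02e-05) and the desmosomal protein Perp (0.63 ± 0.11, adjusted p = 0.00150) rose in DM. Gdf15 (-2.13 ± 0.26, adjusted p = 0.000176), Bax (-0.41 ± 0.11, adjusted p = 0.0140) and the nuclease gene Aen (-0.48 ± 0.15, adjusted p = 0.0304) fell.

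In the clones, 7 of the 36 rose and 4 fell (Ercc5, Ephx1, Polk, Pmm1) in DM in WT (median -0.08), and 4 rose (Ak1, Sfn, Perp, Lif) and 1, Gdf15, fell in labelled KO (median -0.03). Over all genes 9.61% rose and 6.13% fell in WT, and 4.94% and 3.41% in labelled KO clones. Perp rose in labelled KO clones (0.83 ± 0.14, adjusted p = 0.0200) and stood at 0.35 ± 0.14 in WT clones (adjusted p = 0.143). Between labels 0 rose and 7 fell in EM (median -0.24), and 1 rose and 3 fell (Ddit4, Gdf15, Pmm1) in DM (median -0.08). The shares of all genes were 5.38% higher and 4.41% lower in EM, and 2.39% and 3.08% in DM. Gdf15 stood at 64.2 and 54.2 CPM in WT EM, 12.1 and 18.5 in labelled KO EM, 40.2 and 18.2 in WT DM and 3.29 and 3.83 in labelled KO DM, and fell in both media (-1.95 ± 0.38, adjusted p = 0.0253, and -3.04 ± 0.41, adjusted p = 0.0193). Aen fell in labelled KO EM (-0.47 ± 0.11, adjusted p = 0.0378). Eda2r was the 1 gene of the 36 that was called higher in labelled KO DM (0.72 ± 0.12, adjusted p = 0.0280). Without overlap, 8 of the 36 were higher there and 14 lower, beside 3752 and 3751 of all 14282 genes. Fas stood at 2.11 and 13.3 CPM in WT DM and at 46.8 and 44.7 CPM in labelled KO DM, and was not called. In EM Fas stood at 5.35 and 8.30 CPM in WT and at 7.53 and 12.8 CPM in labelled KO clones. Ppm1d, the phosphatase that turns p53 signalling off, was not called in either medium (-0.37 ± 0.14 and -0.56 ± 0.14).

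Among 17 genes for p53, its relatives and its regulators, 12 rose and 5 fell (Sirt1, Usp7, Rchy1, Atm, Cop1) in uncloned EM against the gland (median 0.69), and 11 rose and 4 of those 5, without Usp7, fell in uncloned DM (median 0.62). With total-count scaling all 17 were called higher and 0 lower in each medium, so each of these falls turned. The shares of all genes higher and lower were 37.4% and 37.4% in EM and 38.1% and 37.4% in DM. Under total-count scaling 83.8% (EM) and 84% (DM) of all genes were called higher. Trp53 itself stood at 19.4, 23.7 and 20.1 CPM in the gland, 58.4, 57.0 and 64.4 in EM and 68.1, 71.3 and 71.7 in DM, and rose in both (1.51 ± 0.10, adjusted p = 9.42e-08, and 1.75 ± 0.10, adjusted p = 2.73e-08). Trp63, the p53 relative of basal epithelial cells, stood at 4.97, 8.75 and 9.90 CPM in the gland and at 70.3 to 78.5 CPM in EM (3.21 ± 0.17, adjusted p = 2.07e-08). Summed basal markers (Krt5, Krt14, Krt17, Col17a1, Itga6) moved the same way, from 157.1 to 197.4 CPM in the gland to 3732 to 3993 CPM in uncloned EM and 6015 to 7714 CPM in uncloned DM, and their part in the members' levels was not tested. Mdm4, the partner of Mdm2, rose by 0.91 ± 0.08 in EM (adjusted p = 1.26e-06). Cdkn2a, whose locus encodes both INK4A and the Mdm2 inhibitor ARF, had 2, 0 and 2 counts in the gland and stood at 29.2, 28.6 and 24.5 CPM in EM and 39.8, 43.1 and 27.7 in DM. A count for the gene does not separate the products. Trp73 had 0, 0 and 3 gland counts and stood at 5.31, 6.40 and 5.22 CPM in EM and 2.10, 2.38 and 2.81 in DM.

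Trp53 RNA was not called between media or labels: it stood at 99.4 and 95.4 CPM in WT EM, 126 and 101 in WT DM, 97.3 and 113 in labelled KO EM and 121 and 114 in labelled KO DM. Between the media 2 regulators rose (Cop1, Hipk2) and 2 fell (Trp73, Chek2) in uncloned organoids, 0 rose and 2 fell (Trp73, Chek2) in WT clones, and 0 rose and 1, Chek2, fell in labelled KO clones. With total-count scaling 0 rose and 2 fell in uncloned organoids. Over all genes 17.2% rose and 13.2% fell in uncloned organoids, 9.61% and 6.13% in WT clones and 4.94% and 3.41% in labelled KO clones. Trp73 fell in DM in uncloned organoids (-1.21 ± 0.28, adjusted p = 0.00755) and in WT clones (-1.91 ± 0.32, adjusted p = 0.0113). Between labels 1 regulator, Kat5, rose in EM and 2 rose in DM (Trp73, Rchy1), and 0 fell in either. Of all genes 5.38% rose and 4.41% fell there in EM, and 2.39% and 3.08% in DM. Trp73 stood at 1.74 and 3.02 CPM in WT DM and 9.70 and 12.3 CPM in labelled KO DM (2.22 ± 0.32, adjusted p = 0.0223).

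The 7 close relatives of the members, which are not classed as p53 targets here, give a setting for the members' own changes. In uncloned EM against the gland 5 rose (Cdkn1b, Btg3, Ccng2, Sesn3, Btg1) and 2 fell (Cdkn1c, Trp53inp2), with a median of 1.02. In uncloned DM against the gland the same 5 rose and the same 2 fell (median 0.66). With total-count scaling 6 were called higher and 0 lower in EM and 6 higher and 1 lower in DM. The shares of all genes higher and lower were 37.4% and 37.4% in EM and 38.1% and 37.4% in DM. Under total-count scaling they were 83.8% and 9.49% in EM and 84% and 9.26% in DM. Between media in uncloned organoids 1, Btg1, rose and 5 fell (Cdkn1b, Ccng2, Sesn3, Cdkn1c, Trp53inp2, median -0.41), beside 17.2% of all genes higher and 13.2% lower. Ccng2, the relative of Ccng1, rose in EM by 2.25 ± 0.11 (adjusted p = 7.36e-09), and Trp53inp2, the relative of Trp53inp1, fell by 0.55 ± 0.09 (adjusted p = 0.000129). Cdkn1b, the p27 relative of Cdkn1a, was lower in uncloned DM than in EM (-0.42 ± 0.11, adjusted p = 0.0151), opposite in sign to Cdkn1a. Btg1, the relative of Btg2, rose in DM in the uncloned lines (0.64 ± 0.11, adjusted p = 0.00143), in WT clones (1.06 ± 0.14, adjusted p = 0.00556) and in labelled KO clones (0.82 ± 0.14, adjusted p = 0.0210). It was the 1 relative that rose in each set of clones, where 0 fell (2 in WT clones with total-count scaling). Over all genes 9.61% rose and 6.13% fell in WT and 4.94% and 3.41% in labelled KO clones. Between labels 0 relatives rose, with 2 lower in EM (Ccng2, Cdkn1c) and 1, Ccng2, lower in DM. Of all genes, 4.41% were lower in EM and 3.08% in DM. Ccng2 was lower in labelled KO clones in both media (-0.71 ± 0.12, adjusted p = 0.0164, and -0.81 ± 0.12, adjusted p = 0.0223).

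The genes most like Cdkn1a and Mdm2 in profile were found by the root mean square difference of log2(CPM + 0.5), each gene centred on its own mean, among genes with a mean of at least 10 CPM. Over the 8 clone libraries and 9155 genes, Mdm2 was the second nearest gene to Cdkn1a (0.089), after Arhgef5 (0.088) and before Bcar1 (0.098). Mdm2's own nearest genes there were Arhgef5 (0.075), Bcar1 (0.075) and Lats2 (0.088). Over the 9 gland and uncloned libraries and 8804 genes, Cdkn1a was nearest to Anxa1 (0.150), Areg (0.180) and Fscn1 (0.185), and Mdm2 to Togaram1 (0.121), Perp (0.125) and Zfp260 (0.140). Cdkn1a and Mdm2 were thus near neighbours among the clones and not across gland and organoids, where Cdkn1a varied far more (SD 2.49 on the log2 scale, beside 0.52 for Mdm2).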

How the data were processed

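Libraries came from a stranded kit for polyadenylated RNA, per the labels' protocols. STAR, featureCounts and GRCm38 are named in the submitters' processing notes. The sources used here do not give their versions, the strand setting or the annotation release. Both tables are whole-number counts: the authors deposited counts per gene in a table of 9 libraries and another of 8, and no column was left unused. GENCODE M21 symbols matched 36429 of 38293 and 55227 of 55487 IDs. All other IDs held 0.313% and 0.00821% of counts.

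Counts were fitted per table in R 4.3.3 with edgeR 4.0.16 (filterByExpr, trimmed-mean scaling, quasi-likelihood test, a mean per group) over 13713 and 14282 genes, with 6 and 4 residual degrees of freedom. Calls use Benjamini-Hochberg adjusted p under 0.05 over all genes tested. Each SE is the size of the log2 fold change over the square root of F. CPM per kb uses merged exon length. Cell division and other lists come from textbook knowledge, and single genes of them were named by symbol. Genes named only to spell out a count of 5 or fewer were chosen after their values were seen. The members and lists were chosen with earlier results of these data known, and the mismatch limit for p53 elements after seeing the sequences. No set test was run. Alternatives were DESeq2 1.42.0, its size factors, total-count scaling, no filter, only the compared libraries, a robust spread, each library left out, and a block on line or clone.

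The labels give the same clone in EM and DM, and deviations from group means correlated at 0.60 (WT) and 0.514 (labelled KO) between media. EM and DM libraries of lines 6, 7 and 8 correlated at 0.203, 0.126 and 0.114, and gland and organoid libraries of a line at -0.078 to 0.113. In simulated data every group had the mean of all libraries, apart from 100 genes changed 2-fold and 100 changed 4-fold, drawn from well-counted genes only. Of the 2-fold changes, the steps recovered 91% in EM against gland, 94% in uncloned DM against EM, 49% in WT clones and 49% between labels in EM. Changes in genes with few counts were not simulated, nor was a comparison with 74.8% of all genes called, as in EM against gland.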

Additional observations from a re-analysis of the deposited data

Results flagged for a closer look

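Bbc3 differed in direction between media by sample set: the log2 difference of DM against EM was 0.238 in labelled KO clones, where both clones were higher in DM, and -0.37 in uncloned organoids, where all 3 lines were lower. Neither difference was called by edgeR (adjusted p = 0.628 and 0.282), and the difference between the sets was not tested, since they come from tables fitted apart.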

How the results depend on the processing

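With total-count scaling Sesn1 changed sign against the gland, to 1.85 in uncloned EM and 1.13 in uncloned DM, as the median of all genes moved to 2.06 and 1.99. Among 480 values of single members under the alternatives other than leaving out a library, 439 kept their direction and side of the threshold, 33 gained a call, 5 lost one, 2 turned (Sesn1, above) and 1, Btg2 in WT clones, changed sign with no call in either. Among 420 values with 1 library left out, 352 kept both, 6 gained a call, 51 lost one and 11 changed sign with no call in either. In WT clones DM against EM, 7 members were called without a filter on low counts, beside 2110 genes higher and 1387 lower of 28104. The clone as a replicate block gave 7, beside 25.6% of all genes. Only the compared libraries gave 2, beside 662 genes higher and 262 lower of 13766. For labelled KO against WT in DM, 1 was called with only the compared libraries, beside 46 genes higher and 64 lower of 13494. For the interaction, DESeq2 and no filter each called 1, Sesn1, beside 28 higher and 151 lower of 13630 genes and 154 and 503 of 28104. The causes were not tested.

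Leaving out 1 library gave 7 to 8 members called for uncloned EM against gland, 7 to 9 for uncloned DM against gland, 3 to 6 for uncloned DM against EM, 1 to 4 for WT clones, 0 to 1 for labelled KO clones, 1 to 2 between labels in EM, 0 to 2 between labels in DM and 0 for the interaction. The lowest counts come from fits with fewer samples, where a lone library of a group is assumed to vary like the others. The block on line or clone, paired by the labels, moved no other count of members called by over 1.5 times. Labels share only a clone number, and deviations of same-numbered WT and labelled KO clones correlated at -0.007 to 0.025. With that number as a block Sesn2 was called higher in labelled KO EM (0.50, adjusted p = 0.0468), and no other member gained or lost a call between labels.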

Other observations

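For the lists below, the shares of all genes called higher and lower were 37.4% and 37.4% in uncloned EM against the gland. They were 38.1% and 37.4% in uncloned DM, and with total-count scaling 83.8% and 9.49% (EM) and 84% and 9.26% (DM). From EM to DM they were 17.2% and 13.2% in uncloned organoids, 9.61% and 6.13% in WT clones and 4.94% and 3.41% in labelled KO clones. Between labels they were 5.38% and 4.41% in EM and 2.39% and 3.08% in DM. Of 11 BCL-2 family genes tested besides Pmaip1, Bbc3 and Bax, 8 rose and 3 fell (Bik, Bmf, Bcl2l2) in uncloned EM against the gland (median 0.38), and 8 rose and 2 fell (Bmf, Bcl2l2) in uncloned DM (median 0.71). With total-count scaling 9 were called higher and 1 lower in EM and 10 higher and 0 lower in DM. Bcl2 (2.46 ± 0.12, adjusted p = 9.93e-09), Bcl2l1 (1.78 ± 0.12, adjusted p = 1.67e-07) and Mcl1 (0.32 ± 0.11, adjusted p = 0.0234), which oppose apoptosis, rose in EM by edgeR. Between media in uncloned organoids 3 of the 11 rose (Bik, Bok, Mcl1) and 2 fell (Bcl2l1, Bcl2): Mcl1, the partner of Pmaip1, was higher in DM (0.39 ± 0.11, adjusted p = 0.0227) and Bcl2l1 lower (-0.69 ± 0.11, adjusted p = 0.000939). In DM against EM 2 rose (Bok, Mcl1) and 0 fell in WT clones and 0 were called in labelled KO clones, and between labels 0 rose with 1 lower in EM, Bcl2l1 (-0.64 ± 0.14, adjusted p = 0.0349), and 0 called in DM.

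Of 3 INK4 inhibitor genes besides Cdkn2a, 3 rose in uncloned EM (Cdkn2b, Cdkn2c, Cdkn2d) and 2 in uncloned DM (Cdkn2b, Cdkn2d) against the gland. Between media Cdkn2b rose and Cdkn2c fell in uncloned organoids, in WT clones and in labelled KO clones, Cdkn2d also fell in WT clones, and 0 were called between labels. Of 21 cell division genes, 18 rose in uncloned EM and 17 in uncloned DM against the gland, where 0 fell, and 0 were called between labels. Ccnb1, a mitotic cyclin, stood at 6.57, 1.46 and 12.3 CPM in the gland and at 49.0 to 56.0 CPM in uncloned EM, so its level rose together with that of Cdkn1a.

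Of 14 integrated stress response genes, which Atf4 drives and to which Sesn2 also responds, 8 rose and 3 fell (Asns, Atf4, Phgdh) in uncloned EM against the gland, 7 rose and 5 fell (those 3, Chac1 and Atf5) in uncloned DM (13 higher and 0 lower, and 12 higher and 1 lower, with total-count scaling), and 0 rose and 9 fell from EM to DM in uncloned organoids. Asns fell there by 1.18 ± 0.14 (adjusted p = 0.000157). In each set of clones 1 fell in DM, Slc7a11 in WT and Ddit3 in labelled KO, and 0 rose. In labelled KO EM 3 rose (Trib3, Atf4, Vldlr) and 0 fell, with Trib3 at 1.88 ± 0.36 (adjusted p = 0.0249), at 15.6 and 10.2 CPM in WT and 44.2 and 50.7 CPM in labelled KO clones, and 0 were called in DM. Of 10 immediate early genes 8 rose and 0 fell in uncloned EM against the gland, among them Fos (4.21 ± 0.38, adjusted p = 1.50e-06) and Egr1 (3.81 ± 0.32, adjusted p = 7.46e-07). In uncloned DM 8 rose and 1, Nr4a1, fell against the gland, and 2 rose (Jun, Junb) and 1, Nr4a1, fell against EM. With total-count scaling all 10 were called higher than in the gland in each medium, 2 rose and 4 fell in uncloned DM against EM, and 0 fell in labelled KO clones. In DM against EM Jun and Junb rose in both sets of clones and Egr1 fell in labelled KO clones, and between labels 1 fell in each medium, Zfp36 in EM and Junb in DM.

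Macrophage markers Adgre1, C1qa and C1qb were at 0 in all organoid groups, while Csf1r and Cd68 together stood at 96.7 to 152.6 CPM in WT EM, 33.5 to 63.4 CPM in labelled KO EM, 122.2 to 192.4 CPM in WT DM and 31.3 to 40.0 CPM in labelled KO DM. Cd68 was called lower in labelled KO than in WT clones in DM (-2.15 ± 0.38, adjusted p = 0.0302) and not in EM (-1.36 ± 0.37, adjusted p = 0.0649). Of 6 lymphocyte and 5 endothelial markers, summed levels were 7.84 to 16.2 and 45.6 to 64.5 CPM in the gland, at most 0.70 CPM for lymphocyte markers in any organoid group, and at most 5.58 CPM for endothelial markers.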
